A study of Mus musculus with 6 samples.

Results

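A group of 10 epithelial genes was followed in mouse embryonic stem (ES) cells with raised Prdm14: the regulators Grhl2, Esrp1 and Esrp2, and the surface and membrane genes Cdh1, Epcam, Lsr, Prss8, Muc13, Smagp and Lad1. They were chosen by name, in part because their signal fell in these very arrays, so their differences are given as a description with no test. Of the 10 genes, 9 had a probe named for them, 13 probes in all, out of 8529 genes with a tested probe. Epcam had no probe named for it in the annotation used, which names only part of the array, and its expression was not analysed here.

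Gene expression was measured on Illumina Mouse WG-6 BeadChips in total RNA, with 3 arrays of cells labelled Prdm14 overexpression and 3 arrays of cells labelled control vector. All cells were of the 129P2 genetic background and were grown with serum. The study made its stable overexpressing lines from a parental line that carries a Rex1-GFPd2 (Zfp42-GFPd2) reporter. The question of the comparison was which genes respond when Prdm14, a PR domain regulator of pluripotency, is raised in cultures that mix naive cells with cells primed for differentiation. The 3 samples of a group were taken at consecutive passages and no separate clones are named, so errors and p-values cover variation from passage to passage. Whatever else set the cells with the one construct apart from those with the other cannot be told apart from Prdm14. The promoter that drives Prdm14 and the number of lines behind the arrays are not given in the sources used here.

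Epithelial cells hold together through E-cadherin (Cdh1) at adherens junctions and through tight junctions below their outer surface. Grainyhead-like factors such as GRHL2 bind promoters and enhancers of many epithelial genes and activate them, and the ESRP proteins direct the splicing of epithelial isoforms of receptors and adhesion proteins. Naive ES cells grow as compact, E-cadherin-rich colonies, while loss of epithelial genes and gain of mesenchymal ones is the pattern known from gastrulation.

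The promoters of Epcam, Lsr, Smagp and Muc13 are shown because the first 3 hold letters recognised by regulators of epithelial genes and the promoter of Muc13, the gene with the largest difference, holds none of them. The sequences are the 250 bases before the annotated start in RefSeq (GRCm38.p6), read 5′ to 3′ on the gene's strand. Capitals mark ACCGGT, the core of the site of grainyhead factors, and CACCTG or its reverse complement CAGGTG, the E-box bound by the repressors ZEB and SNAIL.
Epcam, chr17:87635729-87635978, plus strand: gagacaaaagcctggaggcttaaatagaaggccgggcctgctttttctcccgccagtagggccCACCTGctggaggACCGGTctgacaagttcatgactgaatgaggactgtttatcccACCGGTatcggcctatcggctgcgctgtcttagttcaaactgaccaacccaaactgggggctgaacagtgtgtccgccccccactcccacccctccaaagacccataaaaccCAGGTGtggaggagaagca
Lsr, chr7:30973470-30973719, minus strand: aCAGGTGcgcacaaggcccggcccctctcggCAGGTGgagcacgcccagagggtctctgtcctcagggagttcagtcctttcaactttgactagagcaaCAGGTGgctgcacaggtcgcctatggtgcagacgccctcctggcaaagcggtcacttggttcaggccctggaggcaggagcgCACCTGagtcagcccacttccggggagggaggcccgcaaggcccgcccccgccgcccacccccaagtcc
Smagp, chr15:100636941-100637190, minus strand: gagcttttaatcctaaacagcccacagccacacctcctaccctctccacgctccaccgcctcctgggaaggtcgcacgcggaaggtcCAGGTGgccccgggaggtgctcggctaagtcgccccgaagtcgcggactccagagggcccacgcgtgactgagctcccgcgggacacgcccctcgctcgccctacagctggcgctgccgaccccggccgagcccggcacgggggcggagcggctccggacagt
Muc13, chr16:33793787-33794036, plus strand: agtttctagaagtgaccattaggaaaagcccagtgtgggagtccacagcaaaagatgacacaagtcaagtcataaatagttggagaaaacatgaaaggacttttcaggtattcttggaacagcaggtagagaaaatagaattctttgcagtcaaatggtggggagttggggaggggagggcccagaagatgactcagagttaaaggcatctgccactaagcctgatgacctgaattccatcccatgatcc
The table of promoters held 7 windows of 5 members (Epcam, Lsr, Lad1, and 2 each for Smagp and Muc13), and had no entry for Grhl2, Esrp1, Esrp2, Cdh1 and Prss8. Motifs were searched on both strands in windows that also took in the first 50 bases after the start. The Epcam promoter held ACCGGT at positions -174 and -131 from the start, the only 1 of the 7 windows with it, against 2.33% of 32851 promoters. The longer grainyhead site AACCGGTT, which contains that core, was in 0 of the 7 windows and in 0.146% of all promoters. The E-box was in 4 of the 7 windows against 20.2% of all promoters, with 4 copies in Lsr (at -249, -219, -151 and -69), 2 in Epcam (at -187 and -19) and 1 in each window of Smagp (at -163 and -70). The PRDM14 motif GGTCTCTAA was in 0 of the 7 and in 0.256% of all promoters. A match describes letters and does not show binding.

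Each array held 45281 probes, of which 31.1% to 32.6% were detected, that is, had a detection p-value against the array's negative control beads under 0.01. Overexpression arrays had a brighter background: probes detected nowhere had a median signal of 73.3 to 81.2 on them and of 59.6 to 62.8 on control arrays. Signals below are bead intensities as deposited, whereas differences are on the log2 scale after background correction and quantile normalization, overexpression minus control, with the standard error (SE) of the linear model and n = 3 per group. The labels were checked on Prdm14 itself, whose brighter probe read 14907, 10751 and 11016 with overexpression against 801, 673 and 855 with the control vector. It was 14.5-fold higher (3.86 ± 0.12, limma adjusted p = 1.73e-06), and a dimmer probe was at least 6.04-fold higher. All 8 ES cell markers were detected on all 6 arrays and none passed the test at an adjusted p under 0.01, among them Pou5f1 (0.03 ± 0.11) and Nanog (0.34 ± 0.09, adjusted p = 0.0582), which passed with trended robust variances (0.00295) and in the authors' normalized values matched to the arrays (0.00670). At an unadjusted p under 0.05 in limma, 3 of the 8 were higher and 0 lower. Their summed signal as deposited, not scaled between arrays, was 75074 to 85232 with overexpression and 63975 to 73170 with the control vector. After normalization their differences ran from -0.12 to 0.34, with a median of 0.14.

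Grhl2, the grainyhead-like factor of the group, had a bead signal of 1125, 1057 and 1148 on control arrays 1 to 3 and of 803, 526 and 473 on overexpression arrays 1 to 3. Overexpression array 1 was the highest of its group and still lay below all control arrays. The difference was -1.28 ± 0.15, or 2.43-fold lower. Grhl2 stayed well above background, with signals 6.43 to 9.89 times the median of undetected probes with overexpression and 17.2 to 18.9 times with the control vector.

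Esrp1 and Esrp2 encode the epithelial splicing regulatory proteins, RNA-binding paralogues that act on many of the same exons. Esrp1 read 1648, 2059 and 1679 with the control vector and 605, 361 and 472 with overexpression. The groups were far apart, with the nearest arrays 1.96 apart on the log2 scale, and the difference was -2.34 ± 0.14 (5.08-fold lower). Esrp2 read 256, 243 and 276 with the control vector and 222, 163 and 189 with overexpression on its brighter probe, or 2.22 to 4.40 times the array background. These groups did not overlap either, and the difference was -1.0 ± 0.09 (2.01-fold lower), against which that of Esrp1 was larger by 1.34 on the log2 scale. The dimmer Esrp2 probe was too close to background for the test, being detected on 2 control arrays and 0 overexpression arrays. It read 110, 131 and 114 with the control vector and 150, 104 and 103 with overexpression, and its groups overlapped.

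Cdh1, the E-cadherin gene, differed least. Its brighter probe read 894, 1015 and 903 with the control vector and 965, 797 and 760 with overexpression, so that overexpression array 1 was above control arrays 1 and 3 in signal as deposited. After normalization the groups were separated by 0.13 on the log2 scale, and the difference was -0.45 ± 0.12 (1.36-fold lower). A dimmer Cdh1 probe was detected on 1 of the 6 arrays and was not tested, with 91.0, 108 and 108 with the control vector and 128, 127 and 128 with overexpression. Its signals as deposited were higher with overexpression, and its normalized values overlapped with a difference of 0.06.

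Lsr encodes the lipolysis-stimulated lipoprotein receptor, also called angulin-1, which marks tricellular tight junctions. It read 182, 204 and 191 with the control vector and 179, 120 and 140 with overexpression, where it was detected on 2 of the 3 arrays. Overexpression array 1 came within a few units of control array 1 in signal as deposited, and after normalization the groups lay 0.69 apart with a difference of -1.10 ± 0.15 (2.15-fold lower).

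Prss8 encodes prostasin, a membrane-anchored serine protease of epithelia, and both of its probes were detected on all control arrays and on 0 overexpression arrays. The brighter read 148, 209 and 188 against 131, 119 and 132, and the dimmer 163, 162 and 165 against 103, 110 and 91.7. Neither probe's groups overlapped. With overexpression at background the fold is a lower bound, the control mean over the lowest level called detected or the probe's own value where that was higher: at least 2.06-fold lower for the brighter probe and at least 1.81-fold lower for the dimmer one. The measured differences were -1.27 ± 0.18 and -1.64 ± 0.16.

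Muc13, a transmembrane mucin of epithelial surfaces, differed most. It read 1088, 1522 and 1706 with the control vector and 82.1, 65.0 and 66.5 with overexpression, where it was not detected on any array. The overexpression signals were 0.886 to 1.01 times the array background and the control signals 18.3 to 27.2 times. The fold was at least 21.2, and the measured difference was -5.82 ± 0.12.

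Smagp encodes a small transmembrane and glycosylated protein found at cell contacts, and both of its probes were detected on all 6 arrays. The brighter probe read 1018, 878 and 1030 with the control vector and 346, 234 and 344 with overexpression. The dimmer read 573, 413 and 594 against 227, 161 and 211. Replicate 2 was the lowest of its group on both probes and in both groups, no groups overlapped, and the differences were -2.21 ± 0.15 (4.64-fold lower) and -2.09 ± 0.16 (4.25-fold lower), closer to each other than their errors. Lad1, which encodes the anchoring filament protein ladinin-1 of basement membranes, was dim: 190, 187 and 167 with the control vector and 108, 87.1 and 86.6 with overexpression, where it was not detected. It was at least 2.10-fold lower, with a measured difference of -2.08 ± 0.15.

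**Figure D1:**
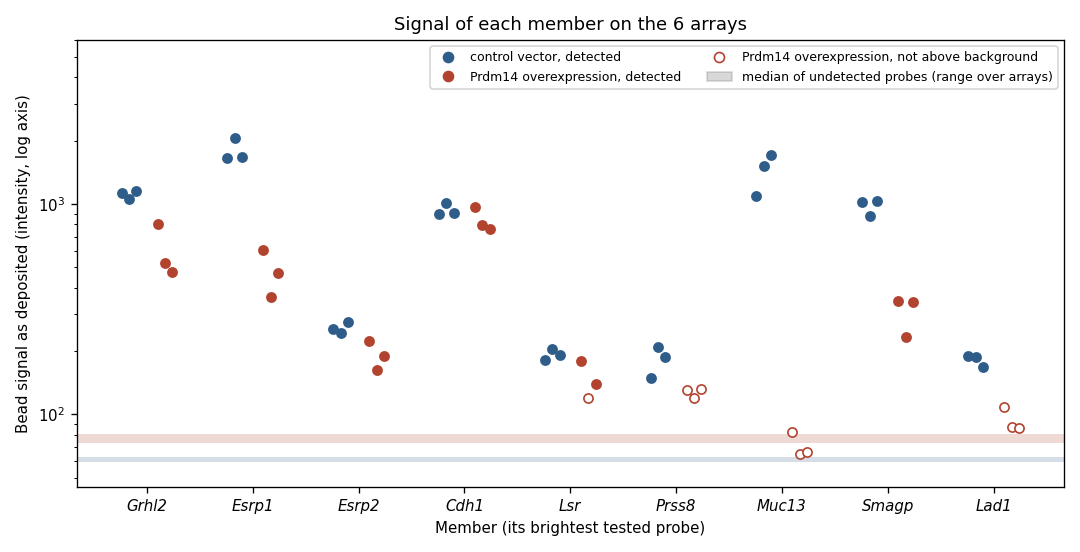
Bead signal as deposited (log axis) of the brightest tested probe of each of the 9 measured genes on the 3 control vector arrays (blue) and the 3 Prdm14 overexpression arrays (red), with open circles where the probe was not above background; the blue and red bands span the median signal of undetected probes on the arrays of each group. Muc13 goes from at least 1088 to the level of the band, while the Cdh1 groups overlap.

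Across the 9 measured genes, all were lower on their brightest tested probe, with a median difference of -1.28 against -0.0016 over all genes tested. The normalized values of all 9 had each overexpression array below each control array, a pattern that 15.3% of all genes tested showed. Both counts follow in part from how the genes were chosen and nothing is read from them. All 9 were detected on all control arrays, 5 were detected on all overexpression arrays, 3 (Prss8, Muc13 and Lad1) on none of them and Lsr on 2. RNA was taken from whole cultures, in which fewer cells that express a gene and less of its RNA per cell cannot be told apart.

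Within a group, the members did not share a single order of arrays. On overexpression arrays 1, 2 and 3, respectively 6, 3 and 5 of the 9 lay above their group mean, with median deviations of 0.09, -0.06 and 0.01 on the log2 scale. On the control arrays these numbers were 6, 6 and 1, with medians of 0.05, 0.15 and -0.10, and Muc13 was the only member above its mean on control array 3. The SD within a group ran from 0.07 to 0.35, the largest being that of Prss8 in the control group.

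**Figure D2:**
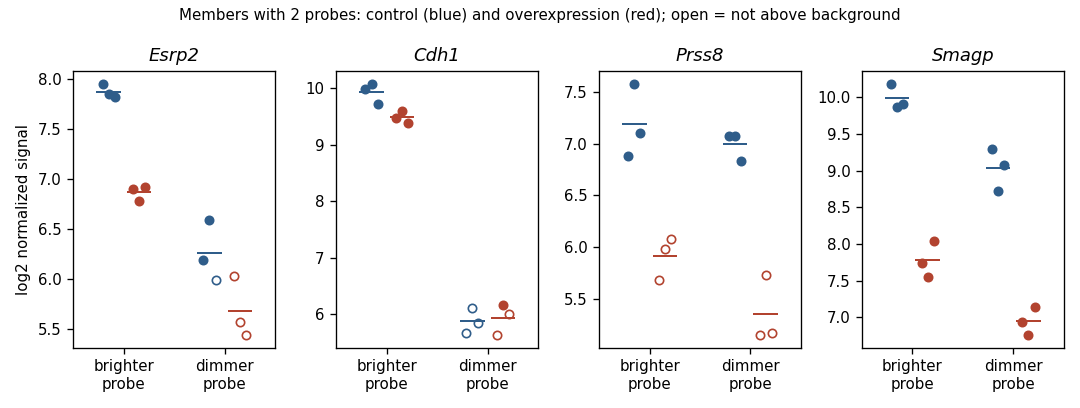
Normalized log2 signal of both probes of the 4 genes that have a pair (each panel with its own axis), per array, with the group mean as a line; control vector in blue, Prdm14 overexpression in red, open circles not above background. Both probes of Smagp and Prss8 separate the groups, whereas the dimmer probes of Esrp2 and Cdh1 lie near background and their groups overlap.

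The size of the differences depended on how background was treated. Without background correction Muc13 was -4.61, Lad1 -1.27, Prss8 -0.80, Lsr -0.73 and Esrp2 -0.75, and Esrp1, Smagp, Grhl2 and Cdh1 were at -2.18, -1.96, -1.19 and -0.42. In the authors' normalized values, with each column given to the array it matched, Lad1 was -0.62, Prss8 -0.43, Lsr -0.41 and Esrp2 -0.47, while Esrp1 was -1.98, Smagp -1.62 and Muc13 -3.15. With a background offset of 50 in place of 16, Muc13 was -4.66, Lad1 -1.40, Prss8 -0.93, Lsr -0.84 and Esrp2 -0.83. With scaling to a common median in place of quantiles, Lsr was -0.96 and Esrp2 -0.86. All 9 remained lower under each of these treatments. Folds given for the members, lower bounds included, therefore hold only for background correction with an offset of 16 and quantile normalization.

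**Figure D3:**
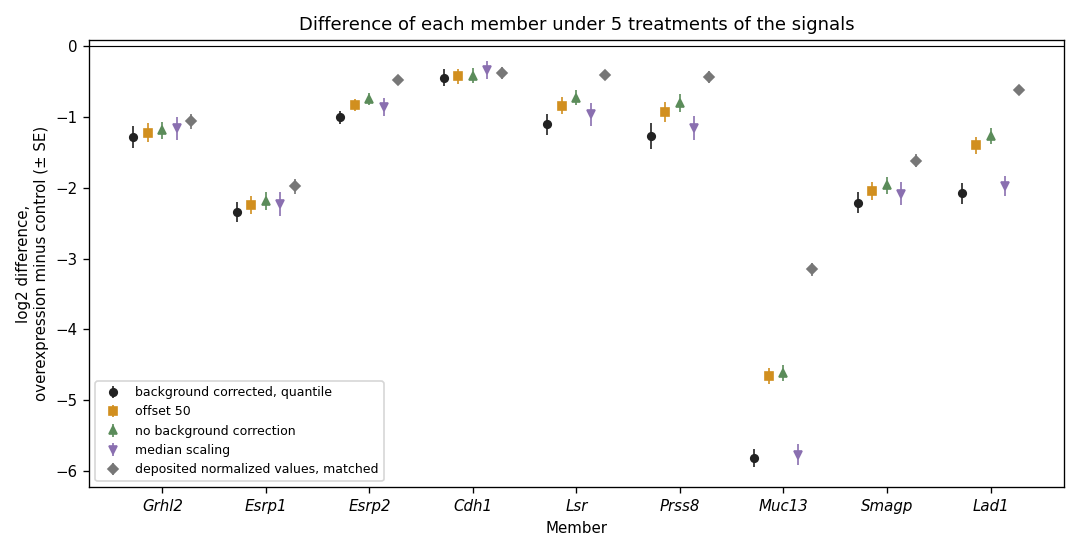
Log2 difference, overexpression minus control (± SE, n = 3 per group), of the 9 measured genes under 5 treatments of the signals. All points lie below 0; Lad1 runs from -2.08 to -0.62 and Esrp1 from -2.34 to -1.98.

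Genes related to the members by role were counted from lists of the same pathways. They were tested in one limma fit over all probes detected on 3 or more arrays, with an adjusted p under 0.01. Over the whole table, 341 of 8529 genes passed, 213 lower (2.50%) and 128 higher (1.50%) with overexpression. Scaling to a common median in place of quantiles turned this split, to 145 lower and 209 higher. Of the 87 listed genes that are not members, 50 were tested, 7 were lower and 0 were higher, with a median difference of -0.13. At an unadjusted p under 0.05, 16 were lower and 4 higher. The lists were written with earlier results of these arrays known, and the study itself names some of these genes, so the counts are not independent evidence of a direction.

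Of 9 tested tight and tricellular junction genes, 3 were lower, all of them claudins, which form the strands of tight junctions. Cldn4 read 1326, 1289 and 1468 with the control vector and 530, 476 and 404 with overexpression (-1.96 ± 0.13, adjusted p = 0.000108). Cldn6, a claudin of early embryonic epithelia, read 910, 834 and 946 against 425, 281 and 365 (-1.83 ± 0.11, adjusted p = 9.84e-05). Cldn3 was dimmer, was detected on 1 of 3 overexpression arrays and fell by 1.50 ± 0.16 (adjusted p = 0.000987). The fourth claudin tested, Cldn7, which binds EPCAM, was at 0.15 ± 0.12 (adjusted p = 0.500), and the scaffold Tjp1 and the angulin Ildr1, a relative of Lsr, did not pass at 0.14 ± 0.14 and 0.41 ± 0.16. F11r did not pass either, at -0.36 ± 0.13 (adjusted p = 0.142). At an unadjusted p under 0.05 in limma, 4 of the 9 were lower and 1 higher.

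Among 8 tested adherens junction genes, Nectin2 (-0.72 ± 0.10, adjusted p = 0.00373, on 3 of 3 probes) and Nectin3 (-0.56 ± 0.09, adjusted p = 0.00667, on 1 of 2 probes) were lower. Both encode nectins, immunoglobulin-like adhesion molecules that recruit cadherins. The call of Nectin3 was lost when any 1 of the 6 arrays was left out (adjusted p = 0.0208 to 0.0370), and that of Nectin2 when control array 1, control array 3, overexpression array 1 or overexpression array 2 was (0.0168 to 0.0226). The partners of E-cadherin inside the cell did not pass: Ctnnb1 was at 0.06 ± 0.09, Ctnna1 at -0.06 ± 0.10 and Ctnnd1 at -0.15 ± 0.15. P-cadherin, Cdh3, was at 0.21 ± 0.12 (adjusted p = 0.339).

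Of the 5 tested epithelial transcription factors related to Grhl2 none passed on its brightest probe, with 0 higher and 3 lower at an unadjusted p under 0.05. The largest difference was that of Elf3, an ETS factor of epithelia, at -0.74 ± 0.14 (adjusted p = 0.0150), which passed with the replicate number as a block (adjusted p = 0.00479) and under 5 other alternatives. Of the 3 tested Elf3 probes, 1 that was not the brightest passed in the main fit, lower with overexpression. The other grainyhead factors were at -0.51 ± 0.11 (Grhl1, adjusted p = 0.0207) and -0.02 ± 0.13 (Grhl3, adjusted p = 0.958).

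At an unadjusted p under 0.05 in limma, 1 of 5 tested genes whose transcripts ESRP proteins splice was lower and 2 were higher. Of these 5, Fgfr2 alone passed the adjusted threshold. It encodes a fibroblast growth factor receptor with an epithelial and a mesenchymal isoform, and read 964, 1172 and 907 with the control vector and 824, 565 and 582 with overexpression (-0.97 ± 0.15, adjusted p = 0.00502). Without any 1 of overexpression arrays 1, 2 and 3 or control arrays 1 and 2 its adjusted p was 0.0136 to 0.0290. A single probe gives no measure of isoforms. None of 6 other splicing regulators passed (2 lower and 0 higher at an unadjusted p under 0.05), the largest difference being that of Mbnl2 (-0.60 ± 0.12, adjusted p = 0.0191), which passed with the replicate block (adjusted p = 0.00744) and under 4 other alternatives.

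In the lists of membrane proteases, EPCAM relatives, mucins and hemidesmosome genes no gene passed in limma. The largest differences were -0.22 ± 0.13 for St14 (matriptase, the protease partner of prostasin; 3 protease genes tested, 0 at an unadjusted p under 0.05), 0.15 ± 0.12 for Cldn7 (2 relatives or partners of EPCAM tested, 0), 0.19 ± 0.25 for Muc1 (the 1 other mucin tested, 0) and -0.35 ± 0.14 for Cd151 (5 hemidesmosome genes tested, 2, both lower). With 1 array left out, these ran from -0.52 to -0.10 for St14, 0.08 to 0.23 for Cldn7, -0.07 to 0.36 for Muc1 and -0.49 to -0.26 for Cd151. Among 8 tested mesenchymal genes, Acta2, smooth muscle actin, was lower: it read 250, 167 and 313 with the control vector and 84.8, 72.9 and 87.1 with overexpression, where it was not detected (at least 2.93-fold, adjusted p = 0.000224). Zeb1, a repressor of epithelial genes, was at 0.50 ± 0.16 (adjusted p = 0.104), Snai1 at -0.37 ± 0.14 (adjusted p = 0.138) and Vim, vimentin, at 0.15 ± 0.11 (adjusted p = 0.460). Of the 8 mesenchymal genes, 2 were lower and 1 higher at an unadjusted p under 0.05.

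**Figure D4:**
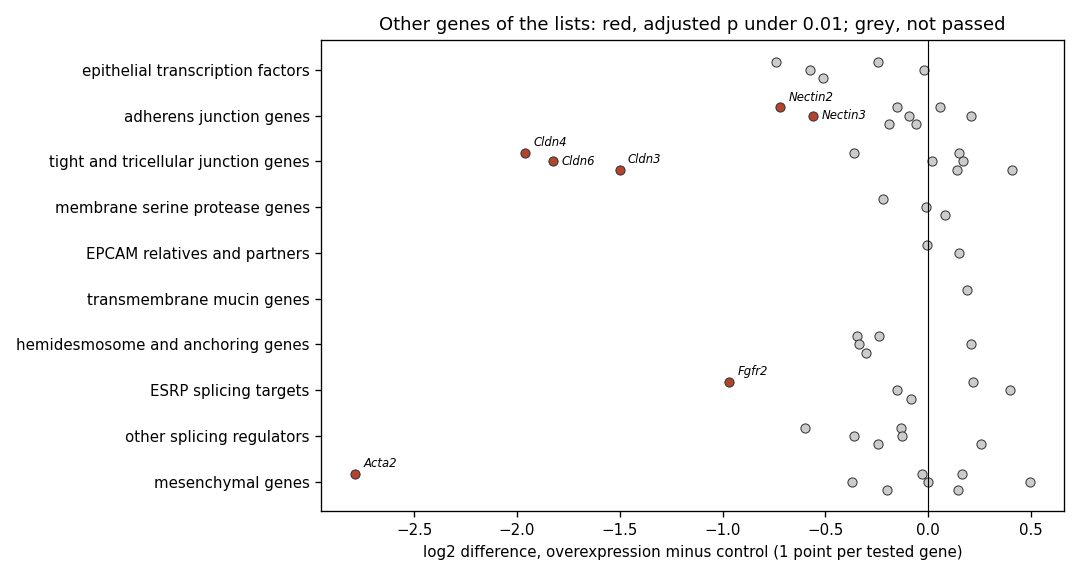
Log2 difference, overexpression minus control, of the tested genes of 10 related lists (1 point per gene, members left out), with red points and names for an adjusted p under 0.01 in limma and grey for the rest. All 7 red genes lie below 0, and 3 of them are claudins.

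Markers of other cell types moved with the members in part. Of 3 tested trophectoderm markers, Krt8 (-1.59 ± 0.17, adjusted p = 0.00103) and Krt18 (at least 1.91-fold lower, adjusted p = 0.000163), the paired keratins of simple epithelia, were lower and Gata3 did not pass (-0.20 ± 0.11). The summed signal of these 3 was 439 to 574 with overexpression and 598 to 856 with the control vector, while Cdx2, Eomes, Elf5 and Tfap2a had no named probe and Krt7 was too dim to test. Of the primitive endoderm markers Sox7 alone was tested, at 374 to 471 with overexpression against 227 to 319 in signal as deposited. Its normalized difference was 0.38 ± 0.16 (limma adjusted p = 0.201), higher at an unadjusted p under 0.05. Of the fibroblast markers Thy1 alone was tested, at 304 to 366 against 265 to 322 as deposited. After normalization Thy1 had the other sign, -0.15 ± 0.13 (adjusted p = 0.549), and neither gene passed. The part of other cell types in the members' differences was not tested.

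The nearest tested gene on either side of each measured member, 18 genes in annotation order, gave 0 calls in limma, with differences from -0.34 to 0.40 and a median of 0.003. Over all genes tested, 2.50% were called lower and 1.50% higher, so 0 calls of 18 say little. At an unadjusted p under 0.05, Slc4a8 beside Smagp was higher (0.40 ± 0.16, adjusted p = 0.171) and Usf2 beside Lsr lower (-0.32 ± 0.12, adjusted p = 0.139). Muc13, with the largest difference, lay between Slc12a8 (0.20 ± 0.13) and Itgb5 (0.13 ± 0.17), and Cdh1 next to Cdh3. This comparison was added after the members' values were seen.

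The mean profile of the 9 members over the 6 arrays was -0.82, -0.92 and -0.91 SD units on overexpression arrays 1 to 3 and 0.92, 1.05 and 0.67 on control arrays 1 to 3. Each member's Pearson correlation with it ran from 0.919 (Cdh1) to 0.997 (Lad1), values that any gene separating the groups can reach. The genes outside the group most like it were Slc40a1, the iron exporter ferroportin (r = 0.9995, difference -3.81 ± 0.18), Blvrb, a biliverdin reductase (r = 0.999, -1.02 ± 0.09), the guanylate-binding proteins Gbp2b (r = 0.998, -2.02 ± 0.13) and Gbp2 (r = 0.997, -2.61 ± 0.14), and Smpd1, acid sphingomyelinase (r = 0.997, -0.51 ± 0.09). These correlations rest on 6 arrays in 2 groups and are a description.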

How the data were processed

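Per the labels, total RNA of 6 samples was biotin-labelled and hybridised to 1 array each. The authors deposited bead signal intensity per probe, linear and neither background-subtracted nor normalized, together with a detection p-value for each. The authors also deposited normalized log2 values of 15944 probes, made with lumi (submitters' processing notes, version not given); 4 of its 6 columns matched another array than the one named (r = 0.904 to 0.912), 2 of them in the other group, so it served only as an alternative. No source used here names the scanner software.

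The function neqc (limma 3.58.1, R 4.3.3) took the intensities to background-corrected log2 values (normexp with an offset of 16, then quantile normalization). The 14604 probes detected at p under 0.01 on 3 or more arrays were fitted with lmFit and eBayes, adjusted by Benjamini-Hochberg over these probes at 0.01. The fit was tested on simulated data. A gene was its brightest tested probe. The platform annotation, with RefSeq symbols, covered the 15944 probes of the normalized table (13778 with 1 symbol, 6 with several, 2160 with none, 13765 matched). All other probes of the 45281 on an array were unnamed here, so a gene with no named probe may still have one. Genes that share a sequence with a copy cannot be separated by a probe.

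Members and lists were chosen with earlier results of these data known. Named were all members and Prdm14; in each list the genes past the threshold or, where none passed, the largest difference; the 5 genes most correlated with the members' mean profile; the ES cell markers and other markers past the threshold. Further genes named beside them, and the neighbours, were chosen after their values were seen. The labels say of replicates only that they are consecutive passages. The main fit did not pair samples, so its errors and p-values leave any pairing out. Same-numbered samples were paired only in the replicate block, an alternative. Deviations from the group mean correlated at 0.121, 0.390 and 0.324 between same-numbered samples and at -0.311 to 0.058 between others. The number of arrays limits the precision. Alternatives changed scaling, background correction, detection filter, variance model, block, input table, choice of probe and left out each array.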

Additional observations from a re-analysis of the deposited data

How the results depend on the processing

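All 9 members stayed lower under every alternative that gave them a value. Their ranges, leaving out the normalized table under its deposited sample names, were -1.42 to -1.06 for Grhl2, -2.46 to -1.98 for Esrp1, -1.03 to -0.47 for Esrp2, -0.54 to -0.33 for Cdh1, -1.20 to -0.41 for Lsr, -1.45 to -0.43 for Prss8, -5.97 to -3.15 for Muc13, -2.35 to -1.62 for Smagp and -2.25 to -0.62 for Lad1. Lad1, Lsr, Muc13 and Prss8 gave no value when detection on all 6 arrays was required. Under the deposited sample names, which put 2 columns in the other group, the members lay between -1.19 (Muc13) and -0.04 (Cdh1), and 0 genes passed, 0 higher and 0 lower, 0 of them in the related lists. Genes past the threshold numbered 87 without the detection filter (24 higher, 63 lower, 3 in the related lists, fitted over all probes) and 591 with trended robust variances (243 higher, 348 lower). Median scaling moved the median gene from -0.0016 to 0.11 and gave 354 genes, 209 higher and 145 lower, so that the higher share rose from 37.5% to 59.0%. Leaving out 1 array gave 122 to 216 genes, 34 to 74 higher and 88 to 149 lower, with 4 to 5 in the related lists, all lower. With the replicate block, which pairs samples by replicate number, 442 genes passed (171 higher, 271 lower). The block turned the calls of Elf3, Mbnl2 and Smpd1 (adjusted p = 0.0109) and of no other gene named with a test. Smpd1 also did not pass with median scaling (0.0786), with the mean of its probes (0.0112) or without any 1 of the 6 arrays (0.0227 to 0.0375). Cldn3, Krt8, Fgfr2, Nectin2 and Nectin3 did not pass without the detection filter (adjusted p = 0.0143, 0.0156, 0.0342, 0.0144 and 0.0110), nor did Nectin3 with median scaling (0.0322) or the mean of its probes (0.0243). Cldn4, Cldn6, Acta2 and Krt18 passed under every alternative that gave them a value except the deposited sample names. Elf3 and Mbnl2 also passed without background correction (adjusted p = 0.00330 and 0.00626), with trended robust variances (0.000864 and 0.00324), at offset 50 (0.00558 and 0.00915) and in the normalized table matched to arrays (0.00233 and 0.00470), and Elf3 with the mean of its probes (0.00512). Nanog passed with trended robust variances and in the matched table. The cause was not tested. Signal over background limits Lad1, Lsr, Prss8 and the dimmer probes of Esrp2 and Cdh1.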
